A study of Mus musculus with 4 samples.

Results

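The genes described here are the 7 that encode subunits of the NMDA receptor, Grin1, Grin2a, Grin2b, Grin2c, Grin2d, Grin3a and Grin3b. They were taken by symbol from the 32285 genes counted, and all 7 were found. Their transcripts were counted in single nuclei from the hippocampus of adult mice at postnatal week 28, of which 2 were wild-type (WT) and 2 carried Cyfip2+/R87C (knock-in, KI), with 1 library per mouse. The KI mice were heterozygous for an arginine-to-cysteine change in Cyfip2, an actin regulator of the WAVE complex, on a C57BL/6N background, and serve as a model of West syndrome, an infantile epilepsy. No other allele and no agent is given for either genotype, and the tissue of both hemispheres was pooled for each mouse. The treatment label of KI replicate 2 reads R88C where its protocol reads R87C, and its genotype label, KI, decided its group.

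NMDA receptors are glutamate-gated cation channels that open only when the membrane is depolarized and a co-agonist, glycine or D-serine, is bound. They let calcium into the postsynaptic cell and start many forms of synaptic plasticity in the hippocampus. Every receptor holds GluN1, the product of Grin1, which binds the co-agonist. The GluN2 subunits, encoded by Grin2a to Grin2d, bind glutamate and set the kinetics of the channel. The GluN3 subunits, encoded by Grin3a and Grin3b, bind glycine and lower calcium permeability.

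The 4 libraries held 73009975 to 80913580 UMIs (unique molecular identifiers, each 1 counted transcript), and 52032 of 55640 barcodes were kept as nuclei. At most 0.529% of the barcodes of a library were shared with another. Clustering without the 7 genes gave 32 clusters, of which 17 were named by marker genes into 10 classes, and 21.5% of nuclei stayed in unnamed clusters. DG granule neurons came from different clusters in the genotypes: a cluster led by Onecut1 and Dsp had 4077 and 3097 nuclei from the WT mice but 220 and 566 from the KI mice, and a cluster led by Mylk3 and Gm30551 had 217 and 192 from WT but 2252 and 1644 from KI. Malat1, an abundant nuclear RNA, made up 8.89% and 8.71% of UMIs in WT but 13.7% and 12.1% in KI, and its part in the genotype results was not tested. Levels are given as CPM (UMIs of a gene relative to all UMIs of the class in that library, scaled to the usual CPM unit), and on this scale the median KI over WT log2 change of all genes tested was -0.13 in DG granule and -0.11 in inhibitory neurons. Genotype changes are therefore log2 fold changes after TMM scaling, by which the DG median was 0.0014. Cyfip2 itself, whose level cannot check the labels because the mutation changes 1 amino acid, did not pass the test in any class. Its log2 changes were 0.03 ± 0.10 (SE) in DG granule and 0.16 ± 0.09 in CA1 pyramidal neurons.

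On the mouse assembly GRCm38, Grin1 lies on chromosome 2 at 25291181-25319187 on the minus strand and spans 28 kb. The antisense gene Grin1os overlaps its 3′ part on the plus strand at 25291220-25298925. Grin2a spans 428 kb of chromosome 16 and Grin2b 460 kb of chromosome 6, whereas Grin2c spans 18.1 kb, Grin2d 46.5 kb, Grin3a 184 kb and Grin3b 6.48 kb. RefSeq promoter windows (GRCm38.p6, 250 bases before to 50 after the gene start) matched 4 of the 7 genes, Grin1, Grin2c, Grin2d and Grin3b. The Grin2d window lies inside the gene span given here, away from its 5′ end, and is left out of the motif counts. The windows of Grin1, the member that was higher in KI, and of Grin2c, the astrocyte member, are shown 5′ to 3′ on the gene's strand, because one gene is shared by all receptors and the other was high in a single class. Grin1 is at chr2:25319138-25319437 and Grin2c at chr11:115267194-115267493, both on the minus strand, and the capitals mark the GC box (GGGCGG on either strand), the motif bound by Sp1.
Grin1: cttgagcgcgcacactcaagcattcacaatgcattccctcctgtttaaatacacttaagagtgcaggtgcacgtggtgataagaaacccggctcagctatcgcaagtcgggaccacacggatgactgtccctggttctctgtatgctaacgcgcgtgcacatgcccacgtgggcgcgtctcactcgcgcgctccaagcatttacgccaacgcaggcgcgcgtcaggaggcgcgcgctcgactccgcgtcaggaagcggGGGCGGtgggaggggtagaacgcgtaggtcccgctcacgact
Grin2c: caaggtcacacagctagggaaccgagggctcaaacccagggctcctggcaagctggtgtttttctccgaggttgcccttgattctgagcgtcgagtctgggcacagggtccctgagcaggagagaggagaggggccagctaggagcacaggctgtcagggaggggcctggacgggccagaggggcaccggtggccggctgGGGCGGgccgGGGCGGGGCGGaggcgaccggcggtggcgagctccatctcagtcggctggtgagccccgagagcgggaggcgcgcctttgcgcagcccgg
The Grin1 window held 1 GC box and the Grin2c window 3, which overlap in part, while the window of Grin3b held 0. A GC box was present in 35.7% of the 32851 promoter windows. The cyclic AMP response element (TGACGTCA) was in none of these 3 windows and in 1.79% of all windows. The AP-1 motif (TGANTCA, both strands) was in the Grin3b window and in 7.81% of all windows. These matches describe letters in the window and are not binding sites.

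**Figure D1:**
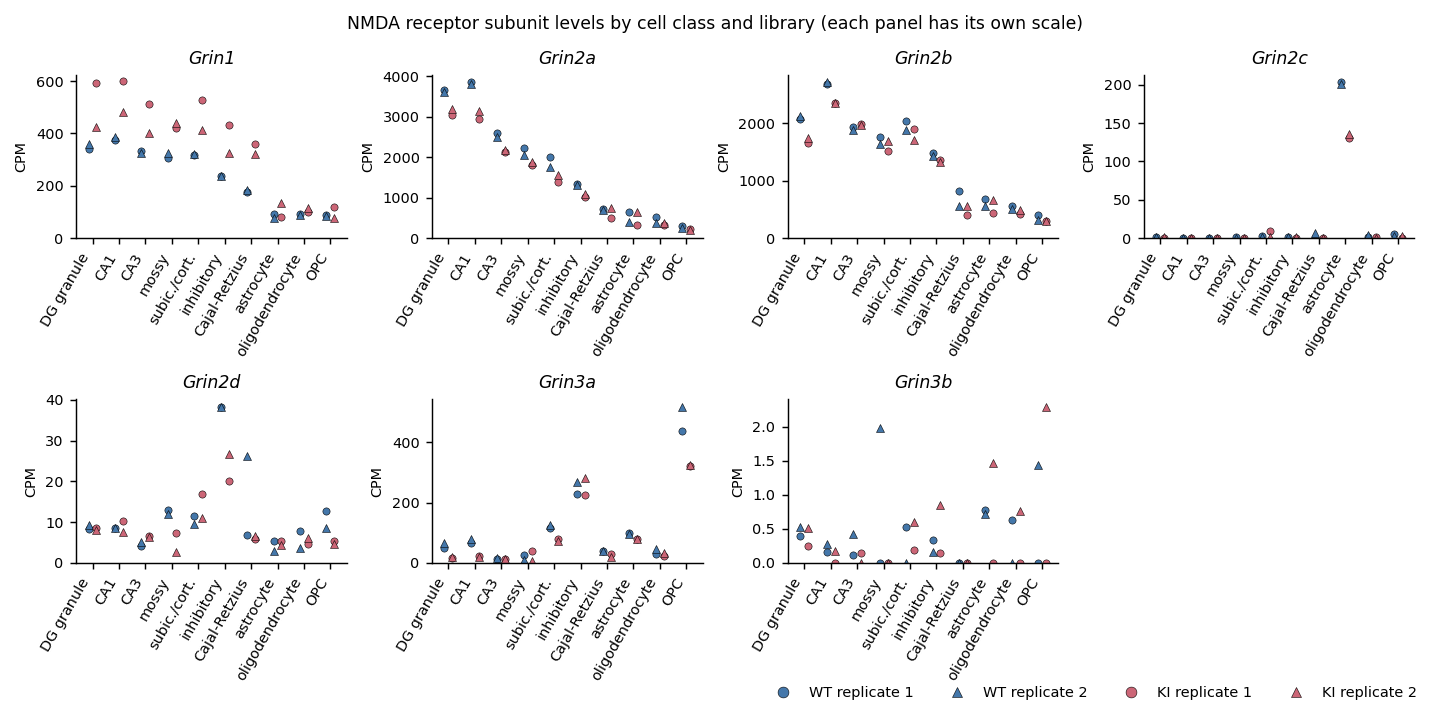
Level of each subunit gene (y axis, CPM, a separate linear scale from 0 in each panel) in 10 cell classes (x axis) for the 4 libraries, with WT in blue, KI in red, circles for replicate 1 and triangles for replicate 2. Grin2a and Grin2b were highest in excitatory neurons, Grin2c in astrocytes at 131 to 203 CPM, Grin2d in inhibitory neurons and Grin3a in OPC at 321 to 518 CPM.

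Grin1 was found at 342, 360, 591 and 426 CPM in DG granule neurons of WT replicates 1 and 2 and KI replicates 1 and 2. The means over the 4 libraries ran from 461 CPM in CA1 pyramidal and 430 in DG granule neurons through 396 in subicular or cortical excitatory, 393 in CA3 and 373 in mossy cells to 309 in inhibitory neurons and 260 in Cajal-Retzius cells. The ranges of neighbours in this order overlapped. Glial classes formed a separate group: their range, 75.6 to 134 CPM over astrocytes, oligodendrocytes and oligodendrocyte precursors (OPC), did not reach the lowest neuronal value of 178 CPM. In oligodendrocytes Grin1 reached 17.0% to 27.5% of its level in DG granule neurons of the same library. Other neuronal genes spread widely there, with Slc17a7 at 67.5% to 84.3%, Snap25 at 44.5% to 55.5%, Meg3 at 40.3% to 72.1%, Syt1 at 26.5% to 29.2% and Rbfox3 at 10.1% to 15.7%. Grin1 was below Slc17a7, Snap25 and Meg3 in all 4 libraries, below Syt1 in 3 and above Rbfox3 in all 4. Grin2a, at 10.5% to 14.3% of the DG level, lay within the range of Rbfox3, the lowest of these 5 genes, and Grin2b, at 24.2% to 28.8%, lay near Syt1. The part of free neuronal RNA in these glial levels was not tested.

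Grin2a, whose subunit gives fast-closing receptors, was highest in CA1 pyramidal neurons at 3447 ± 467 CPM (SD, n = 4 libraries of both genotypes) and DG granule neurons at 3380 ± 312 CPM, which overlapped. CA3 pyramidal neurons followed at 2352 ± 227 CPM, then mossy cells at 1998, subicular or cortical excitatory neurons at 1680 and inhibitory neurons at 1194 ± 158 CPM. Inhibitory types differed widely. Lamp5 interneurons held Grin2a at 2405 to 3423 CPM, Sst interneurons at 1193 to 1350 CPM, and Cnr1, Vip and Pvalb interneurons together at 433 to 791 CPM. Grin2b, whose subunit gives slower receptors, was flatter. CA1 pyramidal neurons were highest with 2350 to 2728 CPM, above the ranges of CA3 and DG neurons. Among interneurons Vip cells were highest with 1828 to 2050 CPM, and the other 4 types lay between 1086 and 1586 CPM.

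Grin2c was a gene of astrocytes in these libraries, with 203 and 201 CPM in the WT and 131 and 135 CPM in the KI libraries. No other class passed 9.25 CPM, and CA1 pyramidal neurons held 21 UMIs in all 4 libraries. Grin2c was also among the 10 leading genes of the astrocyte cluster, although it was left out of the clustering. Grin2d, whose subunit closes most slowly, was highest in inhibitory neurons at 20.1 to 38.3 CPM, above every library of the excitatory classes, which reached at most 16.8 CPM. Vip interneurons had the highest mean of Grin2d, 52.6 ± 18.2 CPM (SD, n = 4), though its range overlapped those of the neighbouring types. The range of Cajal-Retzius cells, 5.88 to 26.3 CPM, rested on 7 UMIs and overlapped that of inhibitory neurons.

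Among the 10 classes Grin3a was highest outside the neurons. OPC held 438, 518, 321 and 325 CPM in the same order of libraries, 800% to 1780% of the level of DG granule neurons in the same library. Inhibitory neurons came next at 226 to 282 CPM, and their types spread widely. Sst interneurons held 507 to 675 CPM, Vip and Lamp5 interneurons 196 to 352 CPM, and Pvalb and Cnr1 interneurons 47.4 to 102 CPM. Astrocytes held 78.0 to 98.4 CPM, above the oligodendrocytes at 22.1 to 44.8 CPM. CA3 pyramidal neurons had the lowest mean, with 13.1 to 15.8 CPM, although the range of mossy cells, on 47 UMIs, reached 8.13 CPM. Grin3b was near the limit of detection, with 92 UMIs among all nuclei of the 4 libraries and 0.208 to 0.432 CPM.

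Levels of different genes were set side by side per kb of gene span, which assumes that intronic reads were counted, and this is not given in the sources used here. Without that division Grin1 was far below Grin2a and Grin2b, at 430 against 3380 and 1900 CPM in DG granule neurons. In DG granule neurons the level of Grin1 per kb was 15.3 CPM per kb, that of Grin2a 7.90 and that of Grin2b 4.13. Grin1 made up 47.1% to 65.6% of the family's level per kb in DG granule neurons and 49.7% to 68.6% in inhibitory neurons. Grin2c made up 46.9% to 66.1% in astrocytes, and Grin3a 24.1% to 36.9% in OPC. Among 10166 genes with at least 10 CPM, the genes whose log2(CPM + 1) was most like a member over 40 points (10 classes in 4 libraries, which share depth and free RNA) were named by Pearson r. Grin2a and Grin2b were each other's nearest gene at r = 0.97. Svop, a synaptic vesicle protein, was nearest to Grin1 at r = 0.95, followed by Gm27188 and Caln1. Kcnj6 and Rbfox3 followed Grin2b for Grin2a, and Gm14330, which lies within Grin2b on the other strand, and Epha6 followed Grin2a for Grin2b. Prdm16 and the astrocyte connexin Gjb6 were among the genes nearest to Grin2c, with r of 0.92 and 0.91. Grk5, Ptprt and Gm15584 were nearest to Grin3a, with r of 0.85 to 0.87. Acbd6, Gpr176 and 1810034E14Rik were nearest to Grin2d, with r of 0.73 to 0.77.

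The comparison of KI with WT asked which subunit genes changed with the mutation in each class. Grin3a fell in DG granule and CA1 pyramidal neurons, and Grin1 rose in CA1 pyramidal and inhibitory neurons. No member passed the test in CA3 pyramidal neurons, glia or all nuclei pooled. In DG granule neurons 1 of the 6 members that passed the low-count filter was called, beside 9.67% of all genes tested and 4.88% called lower in KI (edgeR quasi-likelihood test, Benjamini-Hochberg adjusted p below 0.05). In CA1 pyramidal neurons 2 of 5 were called, beside 7.95% (5% higher and 2.95% lower in KI), and in inhibitory neurons 1 of 6, beside 1.25% (0.831% higher). In CA3 pyramidal neurons 0 of 5 were called by edgeR, beside 2.96%. There 1 had an unadjusted p below 0.05, beside 3100 of 14664 genes tested, and DESeq2 called 1, beside 417 of 13532. In glia 0 of 6 were called by edgeR, beside 0.0947%, and 0 by DESeq2, beside 100 of 12277 genes. There 1 had an unadjusted p below 0.05, beside 1928 of 14780. Over all nuclei 0 of 7 were called by edgeR, beside 0.889%. There 4 had an unadjusted p below 0.05, beside 5282 of 21718 genes tested, and DESeq2 called 3, beside 1850 of 20085. In the remaining classes no member was called by edgeR. The share of all genes called was 0.0557% in astrocytes, 0.868% in oligodendrocytes, 1.18% in OPC and 1.09% in mossy cells. It was 0% in subicular or cortical and Cajal-Retzius neurons. In these classes 0 to 3 members had an unadjusted p below 0.05. The 3 were in subicular or cortical neurons, beside 2648 of 15745 genes. Grin3b passed the filter only over all nuclei.

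**Figure D2:**
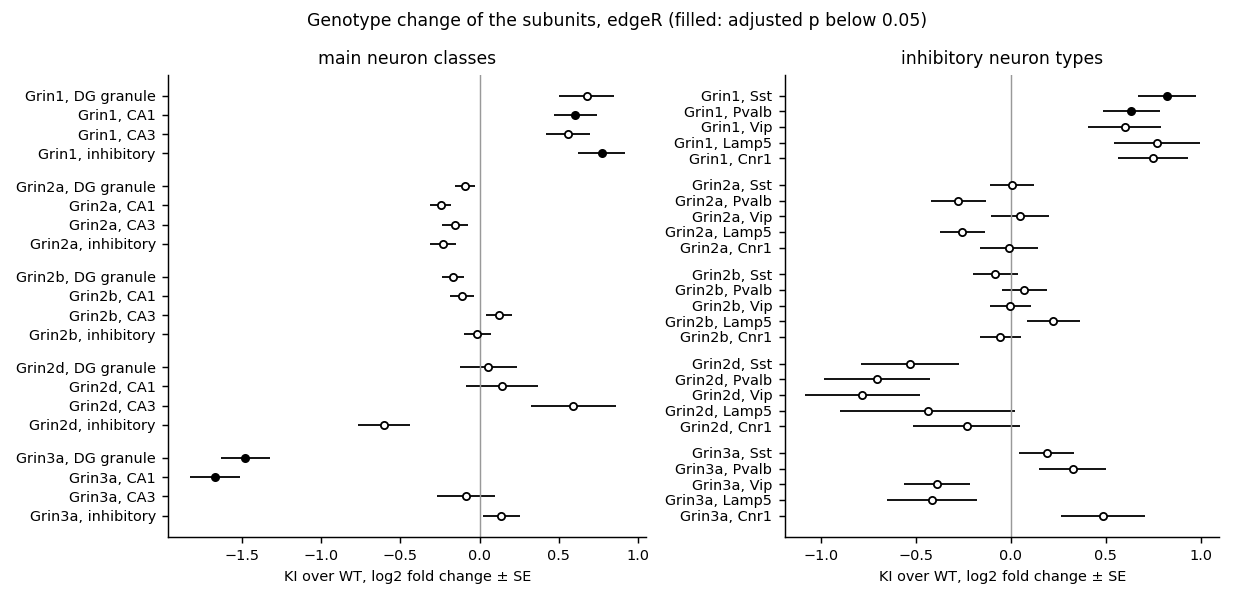
KI over WT log2 fold change with its SE (x axis) of 5 subunit genes in 4 neuron classes (left) and 5 inhibitory neuron types (right), with filled points past the adjusted threshold of 0.05. Grin3a lies at -1.48 in DG granule and -1.67 in CA1 pyramidal neurons and near 0 in CA3, and every Grin1 point lies above 0.

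Grin3a, the subunit that lowers calcium permeability, was measured in DG granule neurons at 51.2 and 64.7 CPM (WT) against 18.0 and 19.8 CPM (KI). CA1 pyramidal neurons gave 64.8 and 80.8 CPM (WT) against 22.4 and 20.4 CPM (KI). The genotypes did not overlap in either class, and 43% of the genes tested in DG granule and 37% in CA1 pyramidal neurons had both KI libraries below both WT libraries. The log2 fold change of Grin3a was -1.48 ± 0.15 (SE, edgeR adjusted p = 0.0052) in DG granule and -1.67 ± 0.16 (adjusted p = 0.0033) in CA1 pyramidal neurons. Per nucleus, Grin3a gave 0.214 and 0.30 UMIs in WT and 0.0874 and 0.0864 in KI DG granule neurons. These counts rest on 919, 986, 216 and 191 UMIs.

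In CA3 pyramidal neurons Grin3a was at 14.4 and 15.8 CPM (WT) against 13.1 and 13.8 CPM (KI), a log2 change of -0.08 ± 0.18 (edgeR adjusted p = 0.84). Grin3a in CA3 lay below its 22.1 to 44.8 CPM in oligodendrocytes, and whether it could fall further there was not tested. In inhibitory neurons, where it was far higher, it was at 228 and 267 CPM (WT) against 226 and 282 CPM (KI), and the genotypes overlapped. The change in DG granule neurons differed from that in CA3 by -1.38 ± 0.17 on the log2 scale (edgeR class-by-genotype term blocked on library, adjusted p = 0.00010) and from that in inhibitory neurons by -1.61 ± 0.12 (adjusted p = 9.3e-06). The change in CA1 pyramidal neurons differed from that in CA3 by -1.57 ± 0.18 (adjusted p = 6.6e-06) and from that in inhibitory neurons by -1.82 ± 0.14 (adjusted p = 5.4e-06). DG granule and CA1 pyramidal neurons differed by 0.20 ± 0.12 (adjusted p = 0.36), and with nuclei gated singly the direction turned, to -0.44 ± 0.19 (adjusted p = 0.25). Of all genes tested, 9.76%, 8.42%, 3.45%, 4.72% and 13.3% passed in these 5 pairs, in the same order, and 3.06% in CA3 against inhibitory neurons.

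The fall in DG granule neurons moved with the clusters of this class. Within the cluster led by Onecut1 and Dsp, Grin3a was at 52.0 and 67.1 CPM (WT) against 20.8 and 29.9 CPM (KI). There it still fell by 1.04 on the log2 scale (SE 0.21, edgeR adjusted p = 0.018), beside 429 of 15247 genes called lower. Within the cluster led by Mylk3 and Gm30551 it was at 34.7 and 23.7 CPM (WT) against 17.7 and 16.2 CPM (KI), a log2 change of -0.71 ± 0.30 that did not pass (adjusted p = 0.23). The values of the cluster led by Onecut1 and Dsp rest on 23 and 76 UMIs in KI, and those of the cluster led by Mylk3 and Gm30551 on 31 and 20 UMIs in WT. In subicular or cortical excitatory neurons Grin3a was at 115 and 126 CPM (WT) against 78.7 and 71.5 CPM (KI) (log2 change -0.63 ± 0.14, edgeR adjusted p = 0.16, where 0% of genes passed). This class pooled clusters, of which the one led by Synpo2 and Adamts19 had 44 and 0 nuclei from WT but 224 and 39 from KI. The part of this makeup in the Grin3a change was not tested. In OPC the change was -0.46 ± 0.17 (adjusted p = 0.21, where 1.18% passed). The 5 inhibitory types had changes of -0.41 to 0.49, and none passed by edgeR, beside 0.858% of genes in Sst, 2.23% in Pvalb, 0.0921% in Vip, 1.19% in Lamp5 and 0.328% in Cnr1 interneurons, with 2 types at an unadjusted p below 0.05. DESeq2 was not run on these types.

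**Figure D3:**
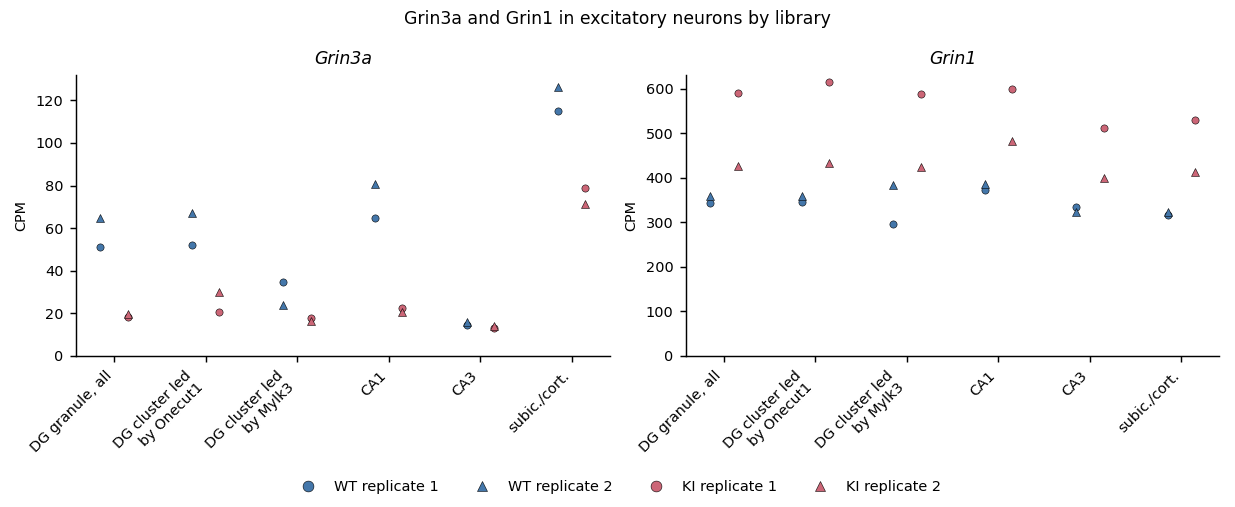
Grin3a (left) and Grin1 (right) in CPM (y axis, from 0) in DG granule neurons, their 2 clusters, CA1, CA3 and subicular or cortical excitatory neurons (x axis) for each library, with WT in blue, KI in red, circles for replicate 1 and triangles for replicate 2. Grin3a in DG granule neurons was 51.2 and 64.7 CPM (WT) against 18.0 and 19.8 CPM (KI), and Grin1 was higher in KI replicate 1 than in KI replicate 2 at every position shown.

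Grin1, the subunit that every receptor needs, was measured at 374 and 387 CPM in CA1 pyramidal neurons of the WT libraries and at 599 and 483 CPM in the KI libraries. In inhibitory neurons the values were 239 and 238 CPM (WT) against 434 and 324 CPM (KI). The genotypes did not overlap, and the KI libraries lay further apart than the WT libraries. The log2 fold change was 0.60 ± 0.14 (edgeR adjusted p = 0.041) in CA1 pyramidal and 0.77 ± 0.15 (adjusted p = 0.046) in inhibitory neurons. Both calls were near the threshold. Without KI replicate 1 the changes were smaller, 0.39 in CA1 pyramidal and 0.51 in inhibitory neurons. That fit leaves 1 KI library, so its spread comes from the WT libraries alone. Without WT replicate 1 the adjusted p was 0.075 in CA1 pyramidal and 0.13 in inhibitory neurons, and without WT replicate 2 it was 0.16 in inhibitory neurons. Gating nuclei singly by markers gave an adjusted p of 0.10 in CA1 pyramidal and 0.056 in inhibitory neurons, and counting a cluster led by Ano1 as inhibitory gave 0.16.

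Grin1 was also higher in KI, without passing, in DG granule neurons (log2 change 0.68 ± 0.17, adjusted p = 0.063) and CA3 pyramidal neurons (0.56 ± 0.14, adjusted p = 0.076). Within each DG cluster alone it passed, with changes of 0.68 ± 0.15 (edgeR adjusted p = 0.027) and 0.65 ± 0.17 (adjusted p = 0.030). In the cluster led by Onecut1 and Dsp 864 of 15247 genes were called, and in that led by Mylk3 and Gm30551 528 of 13190. These settings were chosen after seeing the data. For Grin1 both KI libraries were above both WT libraries in all 7 neuron classes. Of all genes tested the same held for 20.7% in DG granule, 23.6% in CA1, 20.1% in CA3, 14.9% in mossy, 22.1% in subicular or cortical, 18.4% in inhibitory and 13.2% in Cajal-Retzius neurons. It held for Grin1 in all 5 inhibitory types too, beside 13.9% of genes in Sst and Cnr1, 16.1% in Pvalb and Lamp5 and 15.5% in Vip interneurons. Among inhibitory types Grin1 rose in Sst interneurons by 0.82 ± 0.15 (adjusted p = 0.025, beside 0.534% of genes called higher) and in Pvalb interneurons by 0.63 ± 0.15 (adjusted p = 0.027, beside 1.33%). The change of Grin1 differed past the threshold in none of the 6 pairs of neuron classes by edgeR, with differences of -0.23 to 0.11 and 1 pair at an unadjusted p below 0.05. Whether counting used strand is not given in the sources used here, so reads of Grin1os cannot be told from those of the 3′ part of Grin1. As listed, Grin1os was at 10.9 and 10.2 CPM (WT) against 9.5 and 12.6 CPM (KI) in DG granule neurons, far below Grin1.

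Grin2a and Grin2b, which encode the main GluN2 subunits of the adult hippocampus, passed in no class by edgeR as fitted here. Over all nuclei Grin2a was called by DESeq2 (adjusted p = 0.033). DG granule neurons, where it was among the highest, made up 28.8% and 26.6% of WT nuclei and 20.7% and 17.3% of KI nuclei. The part of this makeup in the pooled value was not tested. Under alternatives, Grin2a passed in 4 of 13 in CA1 pyramidal neurons, in 4 of 13 over all nuclei and in 1 of 13 in oligodendrocytes, and Grin2b in 2 of 15 in DG granule and 1 of 13 in CA1 pyramidal neurons. Grin2a in CA1 pyramidal neurons was at 3866 and 3824 CPM (WT) against 2947 and 3152 CPM (KI), a log2 change of -0.25 ± 0.07 (adjusted p = 0.070). Its changes were negative in all 7 neuron classes, from -0.32 to -0.09, but within each DG cluster alone they were 0.15 and 0.16. Grin2b ranged from -0.41 in Cajal-Retzius cells to 0.12 in CA3 pyramidal neurons. The share of Grin2a in the UMIs of both genes, which is not per kb, does not depend on scaling between libraries. In CA3 pyramidal neurons it was 57.2% and 56.9% in WT and 51.9% and 52.7% in KI. In DG granule neurons it was 63.9% and 63.0% in WT and 64.6% and 64.7% in KI, the highest among the 4 main neuron classes. Within the cluster led by Onecut1 and Dsp the difference of KI from WT was 3.9 percentage points, and within the cluster led by Mylk3 and Gm30551 it was 3.6. For the whole class the difference was 1.24 percentage points in DG granule, -2.26 in CA1 pyramidal, -4.80 in CA3 pyramidal and -3.69 in inhibitory neurons. The libraries of the genotypes did not overlap in any of the 4, and the exact two-sided permutation p was 0.333, the smallest that 2 against 2 libraries allow. Inhibitory types spanned the whole range, from 19.1% to 34.0% in Vip, Pvalb and Cnr1 interneurons to 64.3% to 73.9% in Lamp5 interneurons.

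**Figure D4:**
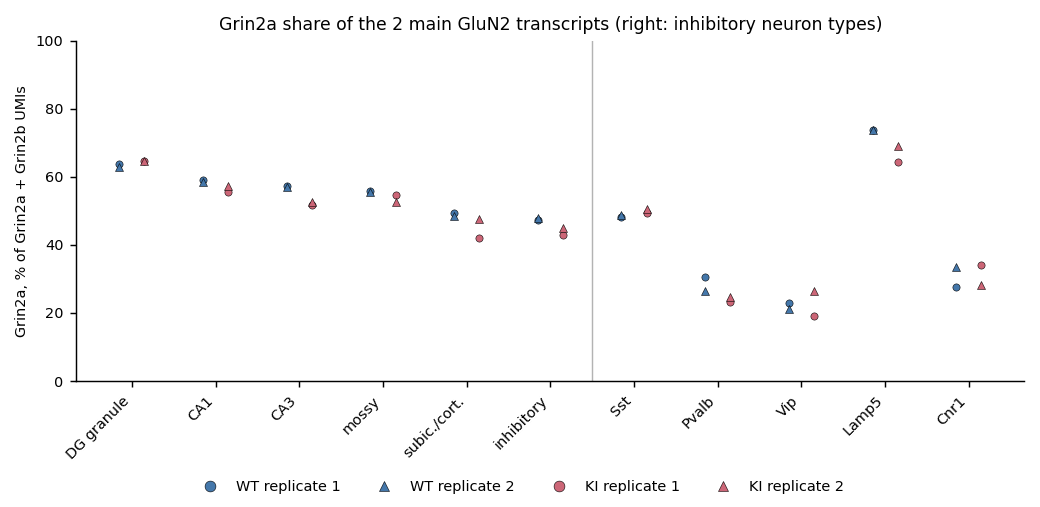
Grin2a UMIs as a percent of Grin2a plus Grin2b UMIs (y axis, 0 to 100) in 6 neuron classes and, right of the line, 5 inhibitory neuron types for each library, with WT in blue, KI in red, circles for replicate 1 and triangles for replicate 2. Lamp5 interneurons lie at 64.3% to 73.9% and Pvalb interneurons at 23.3% to 30.7%.

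Grin2d in inhibitory neurons was at 38.3 CPM in both WT libraries and at 20.1 and 26.8 CPM in KI. The genotypes did not overlap, as for the 37.2% of genes with both KI libraries below both WT, and the log2 change was -0.61 ± 0.16 (edgeR adjusted p = 0.11). It passed under 4 of 14 alternatives, with adjusted p from 1.3e-05 to 0.54 over all 14. Grin2d was lower in KI in all 5 inhibitory types, by 0.23 to 0.78 on the log2 scale, and passed in none by edgeR, with 2 at an unadjusted p below 0.05. In CA3 pyramidal neurons, where it was at 4.23 and 5.04 CPM (WT) against 6.70 and 6.43 CPM (KI) on 33 to 46 UMIs a library, the change was 0.59 ± 0.27 (adjusted p = 0.25). The difference between these classes was 1.21 ± 0.27 (class-by-genotype term, edgeR adjusted p = 0.014), and it no longer passed without WT replicate 1 (adjusted p = 0.10), without KI replicate 1 (adjusted p = 0.096) or with nuclei gated singly (adjusted p = 0.13). Grin2c in astrocytes did not pass, with a log2 change of -0.56 ± 0.21 (adjusted p = 0.36) on 262, 279, 72 and 92 UMIs. Over glia its change was -1.16 ± 0.34 (adjusted p = 0.25). Grin2c passed under 1 of 13 alternatives in astrocytes, 3 of 13 in glia and 4 of 13 over all nuclei. Astrocytes made up 565 of 2910 and 603 of 2095 glial nuclei in WT and 208 of 2636 and 294 of 1330 in KI, and the part of this makeup in the glial value was not tested.

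Genes that work with the receptor were followed in 4 lists of 90 genes in all. The lists were chosen with earlier results of these data known, so their shares beside all genes are a description and not a test. In DG granule neurons 6 of 87 tested rose and 14 fell, 23% beside 9.67% of all genes. In CA1 pyramidal neurons 2 rose and 7 fell, 10.3% beside 7.95%, and in CA3 pyramidal neurons 2 rose and 3 fell of 83, 6.02% beside 2.96%. In inhibitory neurons 1 of 85 fell, 1.18% beside 1.25%.

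Among 18 postsynaptic scaffold genes, 4 fell and 0 rose in DG granule neurons, which is 22.2% beside 9.67% of all genes, with a median log2 change of -0.12 beside 0.0014 for all genes. Homer2, an adaptor that links glutamate receptors to calcium stores, fell there from 39.5 and 37.0 CPM to 11.5 and 14.3 CPM (log2 change -1.44, adjusted p = 0.0049). Actn2, an actin crosslinker that binds GluN1, fell by 1.23 and Homer1 by 0.57. In CA1 pyramidal neurons 3 fell and 0 rose (16.7% beside 7.95%), and Homer1 went from 367 and 334 CPM (WT) to 137 and 133 CPM (KI) (log2 change -1.29 ± 0.10, edgeR adjusted p = 0.0021). Dlg4, which encodes the scaffold PSD-95, fell there by 0.57 and Homer2 by 0.53. In CA3 pyramidal neurons Homer1 fell by 0.53 (adjusted p = 0.037), and in inhibitory neurons no scaffold gene passed by edgeR.

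Among 33 kinase, phosphatase and calcium effector genes, 3 rose and 6 fell in DG granule neurons (27.3% beside 9.67% of all genes), with a median of -0.09. Camk2d, a CaM kinase II isoform, rose from 29.6 and 35.7 CPM to 78.5 and 94.8 CPM (log2 change 1.54, adjusted p = 0.0038). Nos1, the neuronal nitric oxide synthase tethered near the receptor, fell by 1.52, and Rasgrf2, a Ras activator driven by calcium, fell by 1.03. Of the 33, 2 were called in CA1 pyramidal neurons, 6.06% beside 7.95% of all genes, with a median of -0.02. Adcy8, a calcium-stimulated adenylyl cyclase, fell there by 1.72 (adjusted p = 0.0034), and Ptpn5, the phosphatase STEP that acts on GluN2B, rose by 0.61. In CA3 pyramidal neurons Camk2g and Ptpn5 rose, with log2 changes of 0.70 and 0.65, and Prkcb fell by 0.55 (3 of 33, or 9.09% beside 2.96%).

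Among 25 trafficking and surface partner genes, 3 rose and 3 fell in DG granule neurons (24% beside 9.67% of all genes), with a median of 0.10. Kif17, the kinesin that carries GluN2B vesicles, rose from 20.5 and 21.2 CPM to 60.6 and 49.3 CPM (log2 change 1.54, adjusted p = 0.0049), whereas Sorl1 fell by 0.64 and Clstn2 by 0.60. In CA1 pyramidal neurons 0 rose and 3 fell (12% beside 7.95%), with a median of -0.06. There Arc, an activity-induced regulator of AMPA receptor endocytosis, fell by 2.82, from 17.8 and 23.3 CPM to 2.21 and 3.29 CPM (adjusted p = 0.0028), and Lin7a fell by 0.75. Clstn2 was the gene called in inhibitory neurons, with a fall of 0.55 (adjusted p = 0.045). Of the 14 genes for co-agonist supply and removal, 11 were tested in DG granule neurons, and 1 fell (9.09% beside 9.67% of all genes). In CA1 pyramidal neurons 1 of 11 rose (9.09% beside 7.95%), and in CA3 pyramidal and inhibitory neurons none of 8 and 9 passed by edgeR.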

How the data were processed

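Nuclei from the hippocampus of 4 mice were profiled with 10x Genomics 3′ chemistry. The authors aligned the reads to mm10 with Cell Ranger 7.0.1 and deposited UMI counts per gene and barcode, 1 matrix per mouse, as whole-number counts without normalization. Whether intronic reads or strand were used is not given in the sources used here. Barcodes with at least 500 genes, at most 5% mitochondrial UMIs and a doublet score up to 0.25 were kept. The automatic doublet threshold marked 0 barcodes in KI replicate 2, so the fixed score was used throughout. Nuclei were clustered (scanpy 1.11.5, leidenalg 0.10.2, 2000 variable genes, 30 components, resolution 0.5) without the 7 genes, and clusters were named from marker lists. Counts were summed per library and class and tested across libraries with edgeR 4.0.16 (quasi-likelihood, TMM, Benjamini-Hochberg over all genes tested, R 4.3.3), with DESeq2 1.42.0 as an alternative. Class-by-genotype terms were fitted with the library as block. Class levels were compared as a description over libraries. The scripts were tested on simulated counts. The members and gene lists were chosen with earlier results of these data known. Besides the members and Cyfip2, up to 3 called genes of each list and class with the largest change and a mean of at least 10 CPM were named, and the 3 genes most like each member, of which 1 is not reported here. Gene positions came from GENCODE M21 and promoters from RefSeq. With 2 libraries per genotype, p-values rest on 2 mice each. Intervals of sparse genes are limited by depth.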

Additional observations from a re-analysis of the deposited data

Results flagged for a closer look

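Genotype changes that differed between neuron classes were singled out by a test of the difference itself. The KI over WT change of Grin3a in DG granule neurons minus that in CA3 pyramidal neurons was -1.38 on the log2 scale (SE 0.17, edgeR adjusted p = 0.00010), and minus that in inhibitory neurons it was -1.61 (SE 0.12, adjusted p = 9.3e-06). For CA1 pyramidal neurons the same differences were -1.57 (SE 0.18, adjusted p = 6.6e-06) and -1.82 (SE 0.14, adjusted p = 5.4e-06). Grin3a was at 13.1 to 15.8 CPM in CA3 pyramidal neurons, near the KI levels of 18.0 to 22.4 CPM in DG granule and CA1 pyramidal neurons.

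The change of Grin2d in CA3 pyramidal neurons minus that in inhibitory neurons was 1.21 (SE 0.27, edgeR adjusted p = 0.014). It rested on 33 to 46 UMIs per library in CA3 pyramidal neurons, and was lost without WT replicate 1 (adjusted p = 0.10), without KI replicate 1 (adjusted p = 0.096) and with nuclei gated singly (adjusted p = 0.13).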

How the results depend on the processing

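Over 13 to 15 alternatives per class, Grin3a kept its fall in CA1 pyramidal neurons under 13 of 13 (log2 change -1.83 to -1.31, largest adjusted p = 0.018) and in DG granule neurons under 14 of 15, the exception being the cluster led by Mylk3 and Gm30551 (-0.71, adjusted p = 0.23). The settings with single DG clusters and the Ano1 cluster were chosen after seeing the data. Grin1 stayed higher in KI in DG granule, CA1, CA3 and inhibitory neurons under every alternative but passed under 8 of 15, 11 of 13, 5 of 13 and 10 of 14, with log2 changes of 0.38 to 0.92, 0.39 to 0.79, 0.33 to 0.76 and 0.51 to 0.996, and the cause was not tested. The number of members called rose from 1 to 2 in DG granule neurons with DESeq2, without a low-count filter, with nuclei gated singly, with a replicate block and in the cluster led by Onecut1 and Dsp, and was 1 to 3 when libraries were left out in turn. For CA1 pyramidal neurons it was 1 with nuclei gated singly and 1 to 4 with libraries left out. For CA3 pyramidal neurons it was 1 with DESeq2, without the filter and with the replicate block, and 0 to 1 with libraries left out. In inhibitory neurons it was 2 without the filter and with the block, 0 with nuclei gated singly and 0 with the Ano1 cluster added, and 0 to 2 with libraries left out. In glia it was 1 without the filter and with the block and 0 to 1 with libraries left out. Over all nuclei it was 3 with DESeq2 and with the block, 1 without the filter and 0 to 3 with libraries left out. The members whose change differed between classes numbered 2 for DG granule against CA3 with library totals and without the filter, 2 for DG granule and 2 for CA1 against inhibitory neurons without the filter, and 0 for CA3 against inhibitory neurons with nuclei gated singly. For DG granule against CA3, 1665 of all 16418 genes tested passed with library totals and 2040 of 26292 without the filter. Without the filter 2033 of 26501 passed for DG granule and 1227 of 26476 for CA1 against inhibitory neurons. With nuclei gated singly 159 of 15601 passed for CA3 against inhibitory neurons. With libraries left out in turn the numbers of members also moved. Those fits leave 1 library in a genotype, so their counts for class differences are not given.

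Changes that passed in neither setting turned direction in 28 cases. Within the DG clusters led by Mylk3 and by Onecut1, Grin2a was 0.16 and 0.15. Grin2d in DG granule neurons was -0.082 with library totals and -0.16 gated singly. With nuclei gated singly the values were -0.054 for Grin2d in CA1, 0.022 for Grin2a and 0.30 for Grin2d in glia, 0.058 for Grin2a and 0.057 for Grin2b in astrocytes, and 0.16, 0.11 and 0.10 for Grin2a, Grin2b and Grin2d in oligodendrocytes. With 1 library left out in turn the changes ran from -0.026 to 0.13 for Grin2d in DG granule neurons, from -0.15 to 0.38 for Grin2d in CA1 pyramidal neurons, from -0.067 to 0.034 for Grin2b in inhibitory neurons, from -0.47 to 0.071 for Grin2a in glia, from -0.55 to 0.35 for Grin2d in glia and from -0.76 to 0.071 for Grin3b over all nuclei. They ran from -0.63 to 0.28 for Grin2a in astrocytes, from -0.41 to 0.11 for Grin2b in astrocytes, from -0.51 to 0.61 for Grin2d in oligodendrocytes, from -0.12 to 0.58 for Grin1 in OPC and from -0.28 to 0.025 for Grin2b in OPC.

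Calls over all genes moved far more. They numbered 1583 in DG granule neurons, 2921 with the block, 3337 without the filter, 864 and 528 in the single clusters led by Onecut1 and by Mylk3, and 347 to 7923 with libraries left out. For CA1 pyramidal neurons they were 1275, 2289 with the block, 2046 without the filter, 299 gated singly and 693 to 7053 with libraries left out. For CA3 pyramidal neurons they were 434, 732 with the block, 1772 without the filter, 197 gated singly and 232 to 5007. In inhibitory neurons they were 190, 782 with the block, 1065 without the filter, 2 with the Ano1 cluster and 26 to 4595. In glia they were 14, 100 with DESeq2, 209 with the block, 859 without the filter, 25 with class sums thinned to the same UMI total, 8 with at least 1000 genes, 0 gated singly and 0 to 2005. Over all nuclei they were 193, 1850 with DESeq2, 1955 with the block, 710 without the filter and 127 to 7196. Among the fits with 1 library left out, the lowest counts in DG granule and inhibitory neurons came without WT replicate 2 and the highest in each class without KI replicate 2. With library totals, 612 genes rose and 1222 fell in DG granule neurons against 784 and 799 with TMM, 668 and 669 in CA1 against 802 and 473, 161 and 153 in CA3 against 280 and 154, and 99 and 111 in inhibitory neurons against 126 and 64. Same-numbered WT and KI libraries did not deviate together (r = -0.0433 in DG granule, -0.0425 in CA1, -0.0312 in CA3, 0.0052 in inhibitory neurons, 0.0915 in glia and 0.0593 over all nuclei), so the numbers were not taken as pairs. Where 1 library was left in a genotype, it was assumed to vary like the other genotype. Depth limits Grin2c outside astrocytes, Grin2d outside inhibitory neurons and Grin3b everywhere.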

Other observations

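Subunit genes were also measured in clusters that no marker list named. In the cluster led by Ano1 and Gm29478, which held 471 and 24 nuclei of the WT and 200 and 458 of the KI libraries, Grin3a was at 92.9, 196, 198 and 106 CPM in WT replicates 1 and 2 and KI replicates 1 and 2, and the genotypes overlapped. Grin1 there was at 237, 204, 459 and 369 CPM, and the value of WT replicate 2 rested on 26 UMIs. In the cluster led by 2600014E21Rik and Armc4, Grin3a was at 33.9, 19.3, 16.5 and 10.9 CPM on 11 to 52 UMIs per library, and Grin1 at 296, 328, 528 and 357 CPM. Grin1 was lowest in the cluster led by Mrc1 and Inpp5d, which are known from brain macrophages, at 104 to 122 CPM, among the 4 unnamed clusters measured.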
